A study of Mus musculus with 7 samples.

Results

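Mast cell genes were followed in mouse quadriceps, the large thigh muscle, through 7 members: the granule protease genes Tpsb2, Cpa3, Cma1 and Mcpt4, the receptor genes Kit and Ms4a2, and the histamine synthesis gene Hdc. These 7 symbols, of 53819 in the deposited table, were chosen by a named list of mast cell genes that was drawn up with the measured differences between the vector groups in view. The member values for that comparison are therefore given as a description. Counts of members passing a threshold are given, but no p-value for any member, and they support nothing by themselves. RNA came from 7 libraries of male wild type C57BL/6J mice, an inbred laboratory strain. When the mice were 8 weeks old, AAV8, a serotype of adeno-associated virus used to carry genes to liver cells, was given in 200 µl into the tail vein, and the muscle was collected 54 days later. The vector was AAV8-Alb-IGFBP1 in 3 libraries (AAV8-IGFBP1), whose name places the insert behind the albumin (Alb) promoter of the liver, and AAV8-Alb-Null in 4 libraries (AAV8-Null). IGFBP1 is a secreted protein that binds insulin-like growth factors. The labels do not say that each library is a separate mouse, so SDs and p-values measure the spread between these libraries only, which may be technical.

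Mast cells are long-lived immune cells that settle in connective tissue, in muscle mainly along vessels and in the sheaths between fibre bundles. Stem cell factor binding to the receptor KIT keeps them alive, and IgE bound to its receptor arms them to release granules. The granules hold histamine and proteases (tryptases, chymases and carboxypeptidase A3) on a serglycin scaffold, and the set of proteases differs between connective tissue and mucosal mast cells in the mouse.

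Library totals ran from 39927146 to 46197214 estimated counts in AAV8-IGFBP1 and from 38947493 to 51210391 in AAV8-Null. Igfbp1 itself had 202, 1425 and 142 counts in AAV8-IGFBP1 replicates 1, 2 and 3, against 0, 0, 0 and 8 in AAV8-Null replicates 1 to 4. Fast fibre markers summed to 195161 to 215000 CPM (counts scaled to the library total after TMM adjustment) in AAV8-IGFBP1 and to 176807 to 205428 CPM in AAV8-Null. AAV8-IGFBP1 replicate 2 stood apart in neutrophil and adipocyte markers, whose values are given below. All 7 members had counts in both groups, but at low depth: the most abundant, Mcpt4, had 49 to 60 counts in AAV8-IGFBP1 and 58 to 108 in AAV8-Null. At such counts a difference of a few molecules shows in the CPM, and fewer mast cells cannot be told apart from less of these RNAs per cell.

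Across the members, the 4 granule proteases lay lower in AAV8-IGFBP1 than in AAV8-Null on average, to between 0.486 and 0.656 of the AAV8-Null level in the fitted values. The fitted values of Kit (1.09-fold) and Hdc (1.11-fold) were near that level. Their SEs of 0.46 and 0.48 on the log2 scale were too wide to tell no change from one of the proteases' size. Ms4a2 had 1 count in all 3 AAV8-IGFBP1 libraries together and 10 in the 4 AAV8-Null libraries. Of the 6 members with enough counts to be tested, 0 had an adjusted p under 0.05 in edgeR's quasi-likelihood test, as against 0.583% of the 14935 genes tested. By DESeq2 (3.28% of the genes with an adjusted p, Hdc having none) and by limma-voom (0.415%) 0 passed as well. At an unadjusted edgeR p under 0.05 the count was 4, all of them proteases lower in AAV8-IGFBP1, beside 6.91% of all genes tested that were lower at that level. Every AAV8-IGFBP1 library lay below every AAV8-Null library in 3 of the 6 (Tpsb2, Cpa3 and Mcpt4), which 6.01% of all genes tested did. The median log2 fold change of the 6 was -0.75, and that of all genes tested 0.00. Since the list was drawn up with this comparison in view, nothing is read from these counts.

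**Figure D1:**
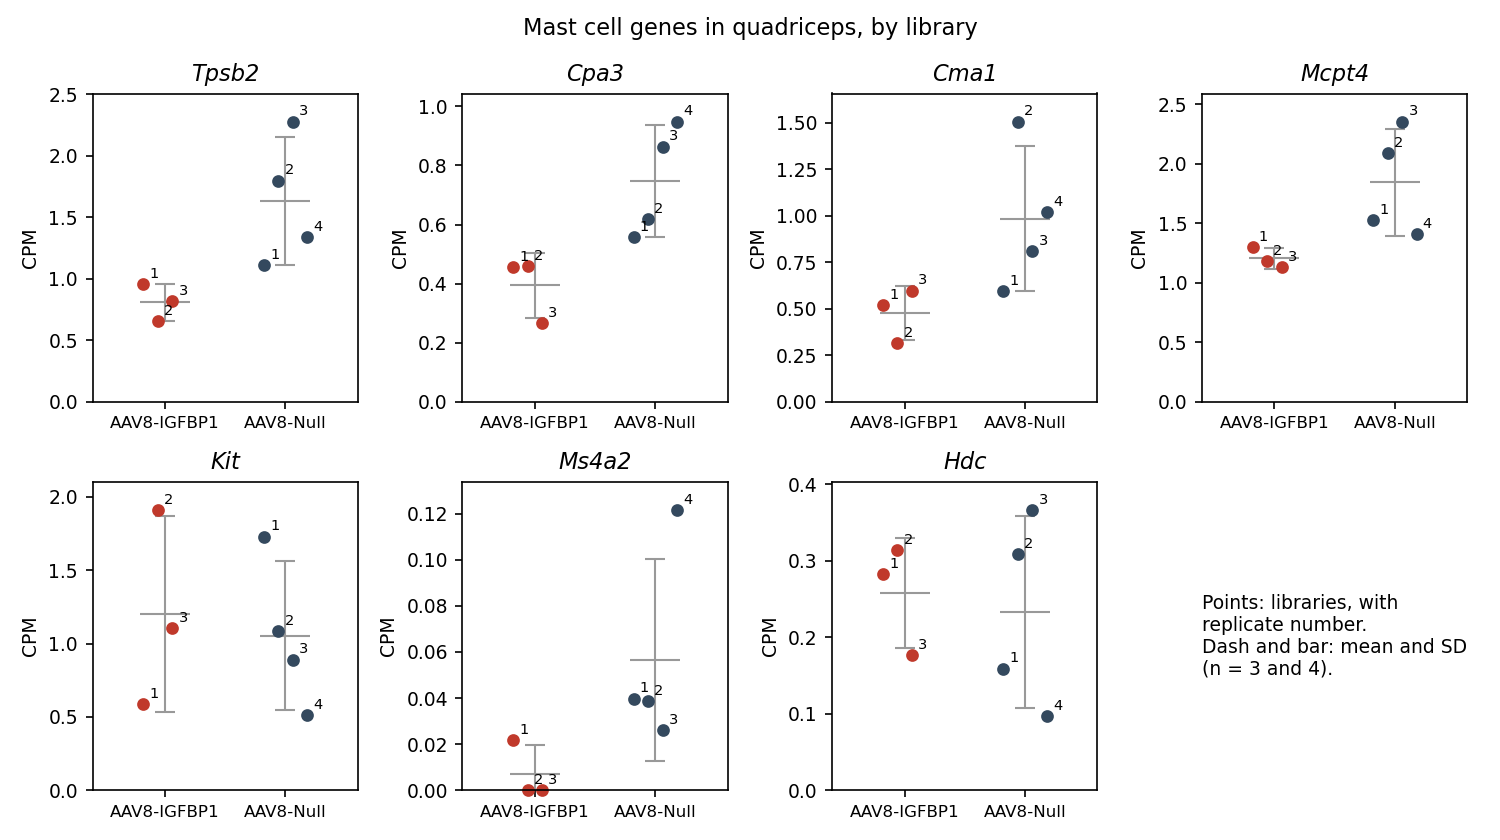
CPM of the 7 members in each library (vertical axes, each starting at 0), with AAV8-IGFBP1 (n = 3) left of AAV8-Null (n = 4), replicate numbers beside the points, and dashes and bars for mean and SD. In Tpsb2, Cpa3 and Mcpt4 all AAV8-IGFBP1 points lie below all AAV8-Null points, Cma1 touches at 0.598 against 0.596 CPM, and Kit and Hdc overlap widely. In the untested Ms4a2 the AAV8-IGFBP1 points (up to 0.0217 CPM) also lie below those of AAV8-Null (from 0.0262 CPM). Those points rest on 1 count in AAV8-IGFBP1 and 10 in AAV8-Null.

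Tpsb2, which encodes a tryptase, the trypsin-like protease stored as a tetramer in the granules, had 44, 27 and 37 counts (0.955, 0.653 and 0.819 CPM) in AAV8-IGFBP1 replicates 1, 2 and 3, against 56, 93, 87 and 55 counts (1.11, 1.80, 2.28 and 1.34 CPM) in AAV8-Null replicates 1 to 4. Every AAV8-IGFBP1 library was lower than every AAV8-Null library, and AAV8-Null replicates 2 and 3 were the highest. The means were 0.809 ± 0.151 CPM in AAV8-IGFBP1 and 1.63 ± 0.517 CPM in AAV8-Null (SD, n = 3 and 4), a log2 fold change of -0.99 (SE 0.29). The annotated transcript of Tpsb2 shared no run of 31 bases with that of its relative Tpsab1. Tpsab1, which carries a known splice site mutation in C57BL/6 mice, had 1, 3 and 1 counts in AAV8-IGFBP1 and 1, 0, 2 and 0 in AAV8-Null.

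Cpa3 encodes carboxypeptidase A3, which removes amino acids from the end of peptides and degrades, among others, endothelin and snake venom toxins. It had 21, 19 and 12 counts (0.456, 0.459 and 0.266 CPM) in AAV8-IGFBP1 replicates 1 to 3, against 28, 32, 33 and 39 counts (0.556, 0.618, 0.864 and 0.949 CPM) in AAV8-Null replicates 1 to 4. The groups did not overlap, and AAV8-IGFBP1 replicate 3 was the lowest. The means were 0.394 ± 0.111 CPM in AAV8-IGFBP1 and 0.747 ± 0.189 CPM in AAV8-Null (SD, n = 3 and 4; log2 fold change -0.89, SE 0.32).

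Cma1 and Mcpt4 encode chymases, chymotrypsin-like proteases of the granule, and their genes lie in the same cluster on chromosome 14. Cma1 had 24, 13 and 27 counts (0.521, 0.314 and 0.598 CPM) in AAV8-IGFBP1, against 30, 78, 31 and 42 counts (0.596, 1.51, 0.812 and 1.02 CPM) in AAV8-Null. The groups met at 1 point, AAV8-IGFBP1 replicate 3 and AAV8-Null replicate 1, and AAV8-Null replicate 2 was the highest. The log2 fold change was -1.04 (SE 0.38), from means of 0.478 ± 0.147 CPM in AAV8-IGFBP1 and 0.984 ± 0.390 CPM in AAV8-Null (SD, n = 3 and 4). With upper-quartile scaling or library totals alone Cma1 also lay lower in every AAV8-IGFBP1 library, which brought the count of such members to 4.

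Mcpt4 had 60, 49 and 51 counts (1.30, 1.18 and 1.13 CPM) in AAV8-IGFBP1, against 77, 108, 90 and 58 counts (1.53, 2.09, 2.36 and 1.41 CPM) in AAV8-Null. The groups did not overlap, with AAV8-IGFBP1 replicate 1 and AAV8-Null replicate 4 next to each other, and the AAV8-IGFBP1 libraries were close together. The means were 1.21 ± 0.0885 CPM in AAV8-IGFBP1 and 1.85 ± 0.450 CPM in AAV8-Null (SD, n = 3 and 4; log2 fold change -0.61, SE 0.22). Mcpt4 shared 10.2% of its runs of 31 bases with Cma2, 3.80% with Mcpt9 and 2.04% with Mcpt1, so a part of its reads could be split with these copies. Mcpt1, Mcpt2 and Mcpt9 had 0 counts in all 7 libraries and Cma2 had 1 count in 1 AAV8-Null library, so few reads were assigned to the copies. Mcpt1 and Mcpt2, proteases of mouse mucosal mast cells, were thus not detected, where a count of 0 allows up to 0.0651 to 0.0725 CPM per library in AAV8-IGFBP1 and 0.0580 to 0.0785 CPM in AAV8-Null.

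RefSeq promoter sequences, 250 bases before to 50 after the start on GRCm38.p6, were at hand for 6 of the 7 members, not for Tpsb2. They are shown for the 3 proteases with an entry, Cpa3 (chr3:20242132-20242431, minus strand), Cma1 (chr14:55944626-55944925, minus strand) and Mcpt4 (chr14:56062261-56062560, minus strand), and for Kit (chr5:75574737-75575036, plus strand), whose groups overlapped. Coordinates are of GRCm38.p6, while the counts were made on GRCm39. Capitals mark GATAA on either strand (TTATC where it lies on the other strand), the core that GATA factors, among them the mast cell factor GATA2, recognise.
Cpa3: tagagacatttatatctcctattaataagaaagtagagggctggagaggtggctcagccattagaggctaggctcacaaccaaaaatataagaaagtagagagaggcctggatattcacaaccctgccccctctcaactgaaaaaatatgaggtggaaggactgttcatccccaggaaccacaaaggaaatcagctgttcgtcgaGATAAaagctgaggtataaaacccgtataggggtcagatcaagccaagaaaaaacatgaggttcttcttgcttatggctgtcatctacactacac
Cma1: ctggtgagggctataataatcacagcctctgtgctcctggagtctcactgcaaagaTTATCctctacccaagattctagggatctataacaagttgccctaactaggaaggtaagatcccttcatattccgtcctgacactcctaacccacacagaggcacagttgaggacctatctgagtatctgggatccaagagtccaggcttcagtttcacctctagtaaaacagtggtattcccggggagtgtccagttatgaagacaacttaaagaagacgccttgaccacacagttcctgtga
Mcpt4: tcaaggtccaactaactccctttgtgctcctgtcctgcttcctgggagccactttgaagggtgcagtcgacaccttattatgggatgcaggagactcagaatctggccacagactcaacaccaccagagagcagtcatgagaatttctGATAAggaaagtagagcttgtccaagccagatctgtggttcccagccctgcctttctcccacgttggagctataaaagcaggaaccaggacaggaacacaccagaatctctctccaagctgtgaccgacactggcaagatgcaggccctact
Kit: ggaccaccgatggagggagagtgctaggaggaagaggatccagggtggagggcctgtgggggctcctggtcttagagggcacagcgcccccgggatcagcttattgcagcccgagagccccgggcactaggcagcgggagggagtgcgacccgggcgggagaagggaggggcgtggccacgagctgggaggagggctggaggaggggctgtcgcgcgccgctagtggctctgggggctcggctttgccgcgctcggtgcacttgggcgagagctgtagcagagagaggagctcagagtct

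GATAA was found once in each of the Cpa3, Cma1 and Mcpt4 windows, 3 times in that of Ms4a2, and 0 times in those of Kit and Hdc. The start in the Ms4a2 window was not found in the transcript of the annotation used for lengths, unlike the other 5. In comparison, 25.3% of all 32544 RefSeq promoter windows of this length held at least 1. CANNTG, the core of E-boxes, was found 2 times in the Cpa3 window, 1 time each in those of Cma1, Kit and Hdc and 0 times in those of Mcpt4 and Ms4a2, with 72.3% of all windows holding it. The 2 motifs overlapped at 0 bases in each member's window. These matches describe letters in a window, and binding was not measured.

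Summed over the 4 proteases, AAV8-IGFBP1 replicates 1, 2 and 3 had 149, 108 and 127 counts, against 191, 311, 241 and 194 counts in AAV8-Null replicates 1 to 4. This came to 3.23, 2.61 and 2.81 CPM in AAV8-IGFBP1 and 3.79, 6.01, 6.31 and 4.72 CPM in AAV8-Null. The groups did not overlap, but the exact 95% Poisson interval of AAV8-IGFBP1 replicate 1 (2.74 to 3.80 CPM) reached into that of AAV8-Null replicate 1 (3.28 to 4.37 CPM), an interval that covers counting error only. The mean was 2.89 ± 0.318 CPM in AAV8-IGFBP1 and 5.21 ± 1.17 CPM in AAV8-Null (SD, n = 3 and 4), a ratio of 0.554.

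The make-up of the protease counts was given as each gene's share. Tpsb2 took 27.9 ± 2.51% of them in AAV8-IGFBP1 and 30.9 ± 3.51% in AAV8-Null (SD, n = 3 and 4), Cpa3 13.7 ± 4.09% and Cma1 16.5 ± 4.62% in AAV8-IGFBP1, against 14.7 ± 4.07% and 18.8 ± 5.55% in AAV8-Null. Mcpt4 took 41.9 ± 2.98% in AAV8-IGFBP1 and 35.6 ± 4.42% in AAV8-Null, with shares of 40.2% to 45.4% in AAV8-IGFBP1 and 29.9% to 40.3% in AAV8-Null. The shares of all 4 genes thus overlapped between the groups. The coefficient of variation of Tpsb2 over the 4 AAV8-Null libraries was 31.7%, where a Poisson count of its size gives 11.7%, and that of Cpa3 was 25.3%, where it gives 17.4%; these are set side by side without a test.

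**Figure D2:**
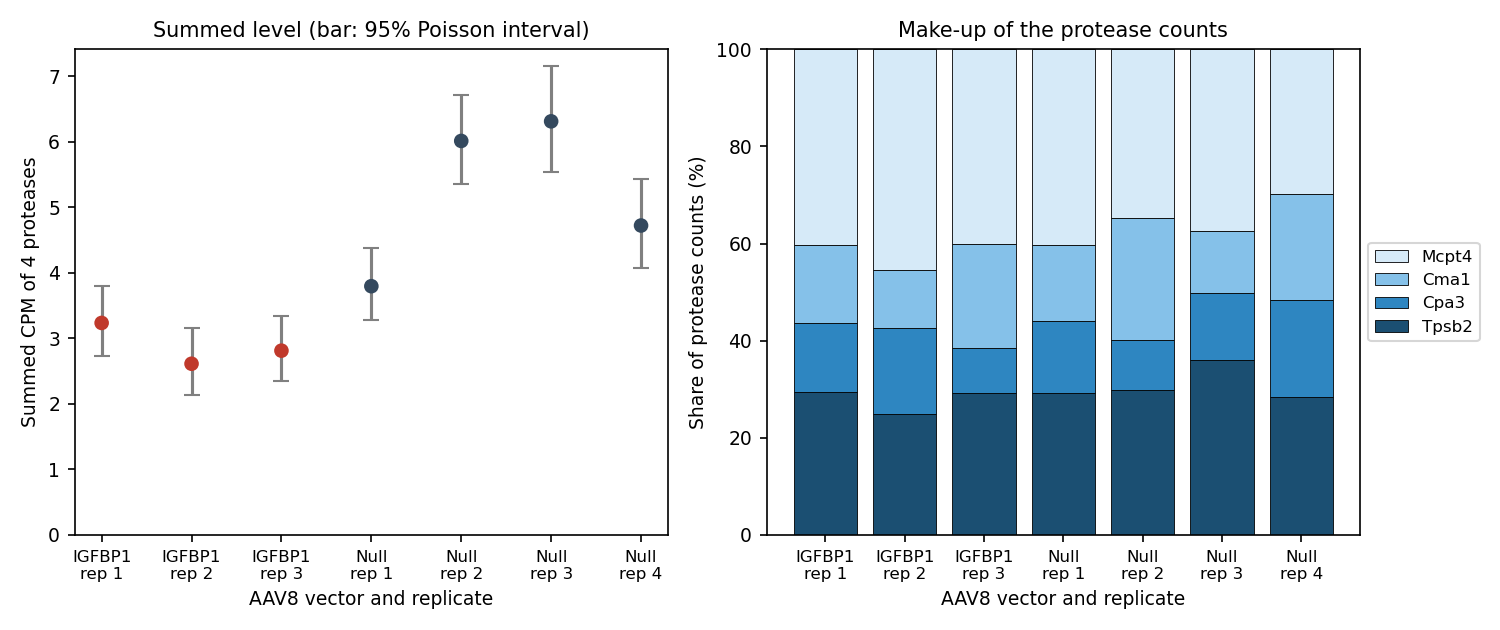
Left, summed CPM of Tpsb2, Cpa3, Cma1 and Mcpt4 in each library with exact 95% Poisson intervals (vertical axis from 0). Right, the share of each gene in the protease counts of the library (%). The 3 AAV8-IGFBP1 sums (2.61 to 3.23 CPM) lie below the 4 AAV8-Null sums (3.79 to 6.31 CPM), while the shares overlap.

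Kit encodes the receptor tyrosine kinase for stem cell factor, which is also known from blood progenitors, melanocytes and interstitial cells. It had 27, 79 and 50 counts (0.586, 1.91 and 1.11 CPM) in AAV8-IGFBP1, against 87, 56, 34 and 21 counts (1.73, 1.08, 0.890 and 0.511 CPM) in AAV8-Null. The groups overlapped over nearly their whole range. The highest library was AAV8-IGFBP1 replicate 2, which had the lowest protease sum, and the lowest was AAV8-Null replicate 4, whose protease sum lay inside the AAV8-Null range. The means were 1.20 ± 0.667 CPM in AAV8-IGFBP1 and 1.05 ± 0.509 CPM in AAV8-Null (SD, n = 3 and 4; log2 fold change 0.13, SE 0.46). The log2 fold change lay below 0 when AAV8-IGFBP1 replicate 2 (-0.36) or AAV8-Null replicate 4 (-0.08) was left out, and was 0.49 when AAV8-Null replicate 1 was, so its direction hung on single libraries.

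For every 100 protease counts there were 18.1, 73.1 and 39.4 Kit counts in AAV8-IGFBP1 and 45.5, 18.01, 14.1 and 10.8 in AAV8-Null. The ratio overlapped between the groups, with AAV8-IGFBP1 replicate 2 the highest and AAV8-Null replicate 4 the lowest. Of the markers of other cells that use Kit, the melanocyte gene Dct had 1 to 4 counts in AAV8-IGFBP1 and 3 to 11 in AAV8-Null. Ano1, a marker of interstitial cells, had 111 to 120 counts in AAV8-IGFBP1 and 81 to 152 in AAV8-Null. Their part in the Kit level was not tested.

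Ms4a2 encodes the beta chain of the high-affinity IgE receptor, which amplifies its signal. It had 1, 0 and 0 counts in AAV8-IGFBP1, against 2, 2, 1 and 5 in AAV8-Null, and did not pass the count filter. The ratio of the pooled levels, AAV8-IGFBP1 over AAV8-Null, was 0.137, with an exact 95% interval for counting error alone of 0.00315 to 0.961. That interval leaves out the spread between libraries and the way the members were chosen, so it does not test the difference. AAV8-Null replicate 4 held 5 of the 10 AAV8-Null counts, so no more than the presence of a few reads can be stated.

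Hdc encodes histidine decarboxylase, the enzyme that makes histamine. It had 13, 13 and 8 counts (0.282, 0.314 and 0.177 CPM) in AAV8-IGFBP1, against 8, 16, 14 and 4 counts (0.159, 0.309, 0.367 and 0.0973 CPM) in AAV8-Null. The groups overlapped, with the highest and the lowest library both in AAV8-Null. The means were 0.258 ± 0.0718 CPM in AAV8-IGFBP1 and 0.233 ± 0.126 CPM in AAV8-Null (SD, n = 3 and 4; log2 fold change 0.15, SE 0.48). Leaving out AAV8-Null replicate 4 gave -0.08, and leaving out either AAV8-Null replicate 1 or AAV8-IGFBP1 replicate 2 gave -0.01.

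With any 1 library left out, the log2 fold changes were -1.14 to -0.80 for Tpsb2 and -1.02 to -0.67 for Cpa3. They were -1.24 to -0.72 for Cma1 and -0.71 to -0.48 for Mcpt4. The groups did not overlap in Tpsb2, Cpa3 and Mcpt4 and barely met in Cma1. A sign below 0 was thus fixed in advance in these fits and supports nothing. With the fibroblast marker level as a covariate, chosen once the data had been seen, the log2 fold changes were -0.42 for Tpsb2, -0.78 for Cpa3, -0.66 for Cma1 and -0.15 for Mcpt4. With the slow fibre level as a covariate, also added later, they were -1.42, -0.96, -1.59 and -0.97 for the same 4 genes, and that of Hdc was -0.64, against 1.14 with the fibroblast level. Further covariates added later were the tendon cell and adipocyte marker levels. In the same order the proteases had -0.79, -0.72, -1.19 and -0.46 with the tendon cell level. With the adipocyte level they had -0.83, -0.87, -0.97 and -0.56.

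**Figure D3:**
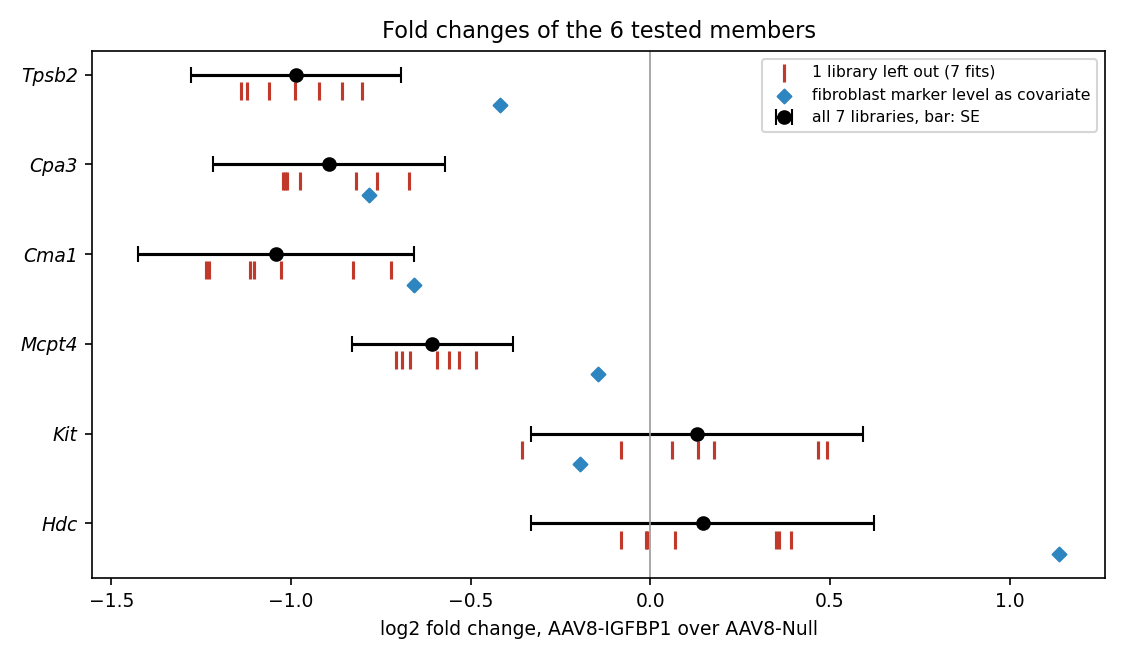
Log2 fold changes (AAV8-IGFBP1 over AAV8-Null) of the 6 tested members with SE (black), with each of the 7 libraries left out in turn (red ticks) and with the fibroblast marker level as covariate (blue). The 4 proteases lie left of 0 in these fits, Mcpt4 at -0.15 with the covariate, while Kit and Hdc fall on both sides. Fits with other marker levels as covariates are not drawn. For the proteases the sign of the left-out fits was fixed in advance, since their groups did not overlap or barely met.

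Per kilobase of the longest annotated coding transcript, the levels in AAV8-IGFBP1 ran from Mcpt4 at 1.09 ± 0.0799 CPM per kilobase over Tpsb2 (0.628 ± 0.117), Cma1 (0.438 ± 0.134), Cpa3 (0.272 ± 0.0765), Kit (0.229 ± 0.127) and Hdc (0.108 ± 0.0300) to Ms4a2 (0.00303 ± 0.00524; SD, n = 3). In AAV8-Null the order was the same, from Mcpt4 at 1.67 ± 0.406 CPM per kilobase over Tpsb2 (1.27 ± 0.401), Cma1 (0.903 ± 0.358), Cpa3 (0.515 ± 0.131), Kit (0.201 ± 0.0971) and Hdc (0.0974 ± 0.0526) to Ms4a2 (0.0237 ± 0.0183; SD, n = 4). Neighbours in this order overlapped over the libraries, except Mcpt4 and Tpsb2 and then Hdc and Ms4a2 in AAV8-IGFBP1, and Cpa3 and Kit in AAV8-Null.

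Across the 7 libraries, log2 CPM of Tpsb2 and Mcpt4 followed each other most closely among the members (Pearson r = 0.95), Tpsb2 and Cma1 had 0.80 and Tpsb2 and Cpa3 0.73, whereas Tpsb2 and Kit had -0.36. After the group means were taken out, Mcpt4 and Hdc had the highest value (0.94), Tpsb2 and Mcpt4 had 0.87, and Tpsb2 and Cpa3 had 0.21. These are descriptions over 7 points that share libraries and depth. Likeness was looked up among 11305 tested genes whose log2 CPM averaged 0 or more, with members and predicted or clone names left out. The 10 most like the mean of the 6 tested members were Tagln2 (Pearson r = 0.985), Pstpip2, Bmp2k, Ret, Zyx, Smpd3, Dbn1, Atn1, Ccnd1 and Sntb2 (0.964). Their log2 fold changes ran from -1.05 to -0.19, a sign that follows from picking them by likeness to members that lay lower. Of the 10, 0 passed the test (edgeR adjusted p 0.0995 to 0.346). The genes nearest to Kit, looked up after the values were seen, were Erlin2 (Pearson r = 0.948) and Prkrip1 (0.948).

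Other genes of mast cell biology were taken from lists made without the 7 members. Of 94 such genes 65 had enough counts to be tested, and 0 passed edgeR's test at an adjusted p under 0.05 (0.583% of all genes tested did), with 7 at an unadjusted p under 0.05, beside 12.9% of all genes tested. DESeq2 called 3 (Cxcl12 lower, Pik3r1 and Pik3cd higher) and gave 7 of the 65 no adjusted p, beside 3.28% called of the 13766 genes to which it gave one. Limma-voom called 0. The log2 fold change was below 0 in 28 and above 0 in 37, with a median of 0.05. The groups did not overlap for 3 of the 65 on the lower side, beside 6.01% of all genes tested, and for 4 on the higher side, beside 6.33%.

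For the granule, Srgn, the serglycin core protein that holds the proteases, had a log2 fold change of 0.07 (SE 0.10) and Ndst2, which builds the heparin chains on it, of 0.02 (SE 0.15). Srgn lay at 5.48 ± 0.175 CPM in AAV8-IGFBP1 and 5.22 ± 0.308 CPM in AAV8-Null (SD, n = 3 and 4). Both genes are also used by other cells.

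Several genes that mark mast cells most closely were too scarce to be tested, and the following were picked after their values were seen. The IgE receptor alpha chain gene Fcer1a had 0, 1 and 0 counts in AAV8-IGFBP1 and 2, 0, 1 and 0 in AAV8-Null. Mrgprb1, a gene of the family of receptors for cationic peptides, had 6, 5 and 5 counts in AAV8-IGFBP1 and 4, 3, 4 and 6 in AAV8-Null. Mrgprb2, which encodes the receptor through which such peptides and drugs degranulate mouse mast cells, had 0, 2 and 1 counts in AAV8-IGFBP1 and 0, 1, 3 and 4 in AAV8-Null. Slc18a2, the vesicle transporter that loads histamine, had 6, 7 and 0 counts in AAV8-IGFBP1 and 4, 3, 7 and 3 in AAV8-Null. These counts overlapped between the groups.

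In IgE receptor signalling, 15 of 17 genes were tested and 0 passed. On the log2 scale the gamma chain gene Fcer1g, shared with macrophages, differed by 0.21 (SE 0.29), the kinase gene Syk by -0.40 (SE 0.33) and the Src family kinase gene Fyn by -0.40 (SE 0.17; adjusted p = 0.386 by edgeR). Pik3cd, a leukocyte phosphoinositide 3-kinase subunit, lay at 17.4 ± 1.86 CPM in AAV8-IGFBP1 and 13.6 ± 0.464 CPM in AAV8-Null (SD, n = 3 and 4; log2 fold change 0.36 with SE 0.08, edgeR adjusted p = 0.120). Its DESeq2 adjusted p was 0.0247, and it ran up to 0.424 over all alternatives. Plcg1, a phospholipase that acts below the receptor, differed by 0.24 on the log2 scale (SE 0.07; adjusted p = 0.226 by edgeR).

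In KIT signalling all 14 genes were tested and 0 passed. Kitl, the gene of stem cell factor, the ligand of KIT, lay at 13.6 ± 1.26 CPM in AAV8-IGFBP1 and 14.8 ± 1.77 CPM in AAV8-Null (SD, n = 3 and 4; log2 fold change -0.12 with SE 0.11, edgeR adjusted p = 0.682). The regulatory phosphoinositide 3-kinase subunit gene Pik3r1 differed by 0.67 on the log2 scale (SE 0.13; adjusted p = 0.0737 by edgeR) and Akt1 by 0.24 (SE 0.06; adjusted p = 0.171 by edgeR). The adjusted p of Pik3r1 ran from 0.000159 to 0.389 over the alternatives. Muscle fibres express both, so they are not read as mast cell values.

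Among factors that draw or feed mast cells, 8 of 11 were tested and 0 passed. Cxcl12, a chemokine of stromal cells, lay at 39.6 ± 1.01 CPM in AAV8-IGFBP1 and 51.9 ± 4.34 CPM in AAV8-Null (SD, n = 3 and 4; log2 fold change -0.39 with SE 0.07, edgeR adjusted p = 0.0637). Its adjusted p ran from 0.000828 to 0.365, and it passed with DESeq2, with no count filter and when AAV8-Null replicate 2 was left out. For Il33, an alarmin gene, the log2 fold change was 0.11 (SE 0.22), and the T cell cytokine genes Il3, Il4 and Il9 had 0 counts in all 7 libraries.

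Of the mast cell transcription factor list 7 of 9 genes were tested and 0 passed. The log2 fold change was -0.08 for Gata2 (SE 0.16) and, for Mitf, which also acts in melanocytes, -0.13 (SE 0.07; adjusted p = 0.478 by edgeR). In histamine handling 5 of 9 were tested and 0 passed, with the histamine-degrading enzyme gene Hnmt at a log2 fold change of 0.07 (SE 0.19). In eicosanoid synthesis 6 of 7 were tested and 0 passed, with the prostaglandin D2 synthase gene Hpgds at -0.23 (SE 0.34) and the leukotriene gene Alox5ap at 0.40 (SE 0.24). Of the surface receptors 10 of 17 were tested and 0 passed, with Il3ra at 0.49 (SE 0.22, edgeR adjusted p = 0.386).

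Of 14 markers of mast cells beyond the members 5 were tested, and 0 passed by edgeR, DESeq2 or limma-voom. Rab27b, a vesicle transport gene, lay the other way from the proteases, at 1.51 ± 0.548 CPM in AAV8-IGFBP1 and 0.761 ± 0.149 CPM in AAV8-Null (SD, n = 3 and 4; log2 fold change 0.98 with SE 0.29, edgeR adjusted p = 0.191). Hs6st2, a heparan sulphate sulphotransferase gene, had 0.48 (SE 0.15, edgeR adjusted p = 0.241). Il1rl1, the IL-33 receptor gene, had 42, 32 and 16 counts in AAV8-IGFBP1 and 17, 36, 27 and 32 in AAV8-Null.

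Markers of other cells were measured in the same libraries. The basophil protease gene Mcpt8 had 0 counts in all 7 libraries, and Prss34, a second basophil protease gene, had 1, 11 and 0 counts in AAV8-IGFBP1 and 5, 5, 1 and 0 in AAV8-Null. Cpa3, which basophils also carry, was lowest where Prss34 had 0 counts among the AAV8-IGFBP1 libraries, and highest in AAV8-Null replicate 4, where Prss34 also had 0. Of 7 eosinophil and 12 T and NK cell markers 0 had enough counts to be tested, and 2 of 8 B cell markers had.

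Neutrophil markers had a mean level, in log2 CPM centred over the 7 libraries, of 3.64 in AAV8-IGFBP1 replicate 2, 0.74 and 0.12 in replicates 1 and 3, and -2.48 to 0.34 in AAV8-Null. The precursor genes Mpo and Elane had 112 and 55 counts in that library, 4 to 8 in the other AAV8-IGFBP1 libraries and 0 to 18 in AAV8-Null. Its summed adipocyte markers were 3312 CPM, the highest of the 7 libraries, with 1433 CPM in the lowest AAV8-IGFBP1 library and 1262 to 1510 CPM in AAV8-Null. A large part of these sums was Car3, at 1702, 1434 and 899 CPM in AAV8-IGFBP1 replicates 1, 2 and 3 and 644 to 897 CPM in AAV8-Null. The centred adipocyte level was 1.55 in replicate 2, -0.10 and -0.50 in replicates 1 and 3, and -0.86 to 0.18 in AAV8-Null. AAV8-IGFBP1 replicate 2 had the lowest Tpsb2, Cma1 and summed protease values and the highest Kit. Its Cpa3 (0.459 CPM) was instead the highest of the AAV8-IGFBP1 libraries, and its Mcpt4 (1.18 CPM) lay between those of replicates 1 and 3. Without replicate 2 the log2 fold changes of Tpsb2, Cpa3, Cma1 and Mcpt4 were -0.86, -1.01, -0.83 and -0.59.

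Connective tissue, where mast cells lie, also differed between libraries. All 16 markers of fibro-adipogenic progenitors and fibroblasts were tested, and 15 had a log2 fold change below 0 (median -0.42). In edgeR's test 1 passed, beside 0.583% of all genes tested. It was Col15a1, lower (log2 fold change -0.75, SE 0.08, edgeR adjusted p = 0.00902). DESeq2 called 4 of the 16, beside 3.28% of the genes to which it gave an adjusted p, and limma-voom 1. The level of the 16 markers was 0.00, -0.25 and -0.49 in AAV8-IGFBP1 replicates 1, 2 and 3, against 0.01, 0.41, 0.37 and -0.05 in AAV8-Null replicates 1 to 4. AAV8-Null replicates 2 and 3 were highest here as in Tpsb2 and Mcpt4. Cpa3 and Cma1 went otherwise. The highest AAV8-Null libraries were replicates 3 and 4 for Cpa3 (0.864 and 0.949 CPM) and replicates 2 and 4 for Cma1 (1.51 and 1.02 CPM). Summed, the fibroblast markers came to 754 to 1211 CPM in AAV8-IGFBP1 and 1188 to 1665 CPM in AAV8-Null. The level of the 11 markers of tendon cells was 0.55, -0.18 and -1.55 in AAV8-IGFBP1 and 0.11, 0.11, 1.06 and -0.12 in AAV8-Null. The part of connective tissue content in the protease values was not tested. The covariate fit above cannot test it, because the markers behind the covariate themselves differed between the vector groups, 15 of 16 being lower.

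Macrophage markers, another resident immune cell, had a level of 0.20, 0.14 and -0.71 in AAV8-IGFBP1 and -0.08, 0.32, 0.50 and -0.35 in AAV8-Null, and 0 of 13 passed. Endothelial markers lay between -0.07 and -0.04 in AAV8-IGFBP1 and between -0.07 and 0.19 in AAV8-Null, with 0 of 10 past the test. Smooth muscle and pericyte markers lay between -0.25 and -0.17 in AAV8-IGFBP1 and between 0.02 and 0.29 in AAV8-Null, so these levels did not overlap. Of the 11 markers 1 passed edgeR's test, Tagln, lower (log2 fold change -1.10, SE 0.13, edgeR adjusted p = 0.00985). DESeq2 called 4 of the 11 and limma-voom 1. The levels of Schwann cell markers (-0.32 to -0.05 in AAV8-IGFBP1, -0.07 to 0.25 in AAV8-Null) overlapped, and 0 of 9 passed by edgeR and 2 by DESeq2. Slow fibre markers had a level of -1.48, -0.72 and -0.03 in AAV8-IGFBP1 and 1.12, -0.36, 0.42 and 1.06 in AAV8-Null. Of these 9 markers 0 passed by edgeR and 1 by DESeq2.

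**Figure D4:**
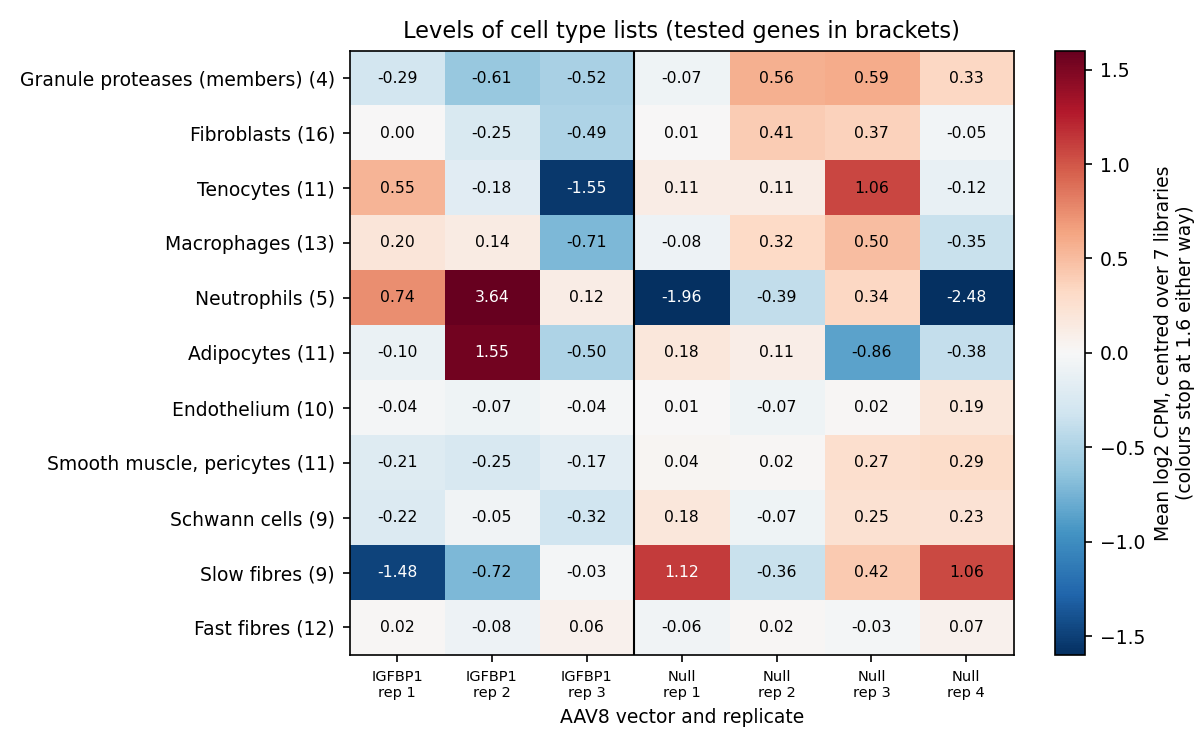
Mean log2 CPM, centred over the 7 libraries, of the 4 granule proteases and of the markers of other cell types (rows, tested genes in brackets) in each library (columns, AAV8-IGFBP1 left of AAV8-Null). The proteases are between -0.61 and -0.29 in AAV8-IGFBP1 and between -0.07 and 0.59 in AAV8-Null, and AAV8-IGFBP1 replicate 2 stands out in neutrophil (3.64) and adipocyte (1.55) markers.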

How the data were processed

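The 7 quadriceps libraries were grouped by title. Per the labels, the library kit was Universal Plus mRNA-Seq. The authors deposited estimated counts, in a table with 1 row for each symbol. The submitters' processing notes name the build GRCm39 and the tools Salmon 1.10.1, STAR 2.7.9a, Trim Galore 0.6.7, cutadapt 3.4 and R 4.2.2. For annotation and strand, the setting is not given in the sources used here. Overlapping genes could share reads.

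Estimated counts were rounded. Genes passing filterByExpr (minimum count 10, minimum total 15) were scaled by TMM and tested on group alone with edgeR 4.0.16's quasi-likelihood test (R 4.3.3; robust), with Benjamini-Hochberg adjustment over 14935 genes. The newer edgeR dispersion method was chosen once the data had been seen, because it gave the 87 changed genes of an earlier analysis of these data; the older method gave 83. SEs are approximate, the log2 fold change divided by the root of F. CPM use TMM-scaled library totals, and log2 CPM a prior count of 2. DESeq2 1.42.0, limma 3.58.1 (voom), other scalings and filters, a replicate block and left-out libraries were alternatives. The gene test was tested on simulated data. The members, lists and rules were chosen with earlier results of these data known. Named are all members, list genes that passed edgeR's test, genes a count singles out, and the 10 most like the members' mean. Up to 3 genes by lowest p are named for the lists of mast cell genes, not for each list of other cells. Other genes were picked after their values were seen. No library within a group was the same library given again (chi-square over its degrees of freedom 20.4 to 54.6). This does not show that the libraries came from separate mice. A floor of 3 counts (0.0580 to 0.0785 CPM) and all intervals cover counting error only. Transcript lengths and 31-base runs come from GENCODE M21, an annotation of another build.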

Additional observations from a re-analysis of the deposited data

Results flagged for a closer look

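Ms4a2 in AAV8-Null lay at 0.122 CPM (5 counts) in replicate 4 and at 0.0262 to 0.0397 CPM (1 to 2 counts) in the other 3 libraries. The gap between replicate 4 and its nearest neighbour was 0.858 of the group's range, above Dixon's 95% critical value for 4 samples. Chance flags about 1 in 20 groups, and 8 quantities were looked at. At such counts the value rests on a few reads.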

How the results depend on the processing

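The members called stayed at 0 in all 19 alternatives. The count of 87 changed genes was 451 with DESeq2, 157 with no count filter, 4 with the replicate number as a block, 131 and 35 with the fibroblast and slow fibre marker levels as covariates, and 14 to 79 with 1 library left out; the cause was not tested. The other mast cell genes called, 0 with edgeR, were 3 with DESeq2, 1 with no count filter and 0 to 1 with 1 library left out, and 0 with the block. The median log2 fold change of the members, -0.75, was -0.31 with the fibroblast level as covariate, -0.85 to -0.62 with 1 library left out, and -0.73 with the replicate block. With the slow fibre, tendon cell and adipocyte levels as covariates it was -0.97, -0.59 and -0.70. Same-numbered libraries did not deviate together (correlations -0.10, 0.07 and -0.06 for numbers 1, 2 and 3), so the numbers were not taken as pairs. The stricter filter left 3 members to be tested. The covariate fits, the older edgeR method (83 genes) and scaling by library totals were added after the data were seen. Counts of 4 to 108 per library in the 6 tested members limit what could be detected, and Ms4a2, with 0 to 5, fell below the filter.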
